A study of Rattus norvegicus with 3 samples.

Results

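The 10 genes described here mark fat cells or make fatty acids: Srebf1 and Pparg, Fasn and Scd, Plin1, Cidec, Lipe, Fabp4, Adipoq and Cfd. They were chosen by gene symbol and were covered by 14 of the 31099 probe sets of an Affymetrix rat array, 2 each for Srebf1, Fasn, Plin1 and Lipe and 1 each for the other genes. They are 10 of 14217 named genes, and all 10 reached the signal floor, a log2 signal of 6.01, on every array. The study measured the soleus, a slow calf muscle that holds posture, in white Sprague-Dawley rats labelled as 8 weeks of age. All rats were fed normally. The control group carries a time label of 7 days, and the other groups had their hind limbs unloaded by suspension of the tail at about 30 degrees, for 7 days or for 14 days. RNA of 4 rats was mixed in each group and each mixture was measured on 1 array, so the values carry no spread between rats and no test was possible. Both suspended groups were compared with the same control array. The title and time entry of the third array give 14 days, whereas its source name gives 7 days; it was taken as the 14-day array.

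Fat cells store triglyceride in droplets coated by perilipin and Cide proteins, release fatty acids from them with lipases, and secrete hormones such as adiponectin. The nuclear receptor PPARgamma turns on this programme, and the transcription factor encoded by Srebf1 turns on the enzymes that build fatty acids. In a skeletal muscle these genes are read from fat cells between the fibres as well as from the fibres themselves, which keep small lipid droplets and can make fatty acids. In RNA of a whole muscle, a larger number of cells of a type and more RNA per cell cannot be told apart.

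The promoters of the members with the largest differences that could be matched (Scd, Plin1 and Adipoq), of the regulator Srebf1 and of Cidec, which lay at or below control, are shown as context. Each is 300 bases of the rat assembly GRCr8 from RefSeq, from 250 bases before to 50 after an annotated start, read on the strand of the gene. The table gave promoters of 7 of the 10 genes, 9 in all, since Pparg and Srebf1 had 2 starts each; Fasn, Fabp4 and Lipe were not matched. Capitals mark matches, on either strand, to the CCAAT box (CCAAT, or ATTGG on the other strand) and the GC box (GGGCGG, or CCGCCC). The lines give Scd at chr1:253231682-253231981, Plin1 at chr1:143086099-143086398, Adipoq at chr11:91240120-91240419, Srebf1 at chr10:45518961-45519260 and Cidec at chr4:148137066-148137365, all on the minus strand.
Scd: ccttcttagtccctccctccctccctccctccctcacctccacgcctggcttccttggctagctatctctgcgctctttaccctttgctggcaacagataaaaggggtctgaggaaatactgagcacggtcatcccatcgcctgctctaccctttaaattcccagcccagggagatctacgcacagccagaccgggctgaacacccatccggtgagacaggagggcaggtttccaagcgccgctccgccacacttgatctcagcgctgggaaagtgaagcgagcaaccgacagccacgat
Plin1: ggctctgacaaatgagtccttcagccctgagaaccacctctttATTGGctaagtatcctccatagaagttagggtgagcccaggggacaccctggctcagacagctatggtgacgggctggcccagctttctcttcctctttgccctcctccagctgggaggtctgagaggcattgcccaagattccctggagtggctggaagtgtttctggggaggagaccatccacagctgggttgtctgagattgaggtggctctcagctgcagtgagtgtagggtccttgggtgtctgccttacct
Adipoq: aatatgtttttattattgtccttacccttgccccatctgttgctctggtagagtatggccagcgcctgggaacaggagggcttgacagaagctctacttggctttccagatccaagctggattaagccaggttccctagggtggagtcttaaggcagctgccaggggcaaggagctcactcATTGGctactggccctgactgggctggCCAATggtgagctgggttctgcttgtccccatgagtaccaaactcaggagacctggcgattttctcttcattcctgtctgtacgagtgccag
Srebf1: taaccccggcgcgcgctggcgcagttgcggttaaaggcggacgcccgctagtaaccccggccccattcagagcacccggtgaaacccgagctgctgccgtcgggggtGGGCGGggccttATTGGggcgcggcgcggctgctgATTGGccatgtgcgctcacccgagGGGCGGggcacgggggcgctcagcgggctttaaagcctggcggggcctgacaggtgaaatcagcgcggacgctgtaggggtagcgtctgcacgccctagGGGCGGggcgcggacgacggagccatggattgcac
Cidec: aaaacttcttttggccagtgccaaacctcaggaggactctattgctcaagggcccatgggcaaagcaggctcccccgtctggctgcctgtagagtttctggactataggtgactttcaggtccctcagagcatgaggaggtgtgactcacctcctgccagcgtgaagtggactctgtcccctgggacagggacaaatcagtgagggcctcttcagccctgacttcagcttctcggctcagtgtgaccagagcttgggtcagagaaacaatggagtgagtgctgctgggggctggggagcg

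A CCAAT box was found in 5 of the 9 promoters of the members, against 37.5% of the 33469 promoters of the table, and a GC box in 4 of 9, against 33.1%. Adipoq held 2 CCAAT boxes, starting 69 and 42 bases before its start, and Plin1 held 1. The Srebf1 promoter shown held 2 CCAAT boxes and 3 GC boxes, in a sequence of 70.7% G and C. The Scd and Cidec windows held neither motif. The letters of the sterol regulatory element (TCACNCCAC, in 1.12% of all promoters) and the E-box CACGTG (6.42%) were not found in any of the 9 windows. These matches are descriptions of the windows and were not set against the signals.

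The arrays were alike in technical measures. The array medians were 6.70 to 6.77, and 59.1% to 61.6% of probe sets reached the floor. For Gapdh, the signal at the 3' end stood above that at the 5' end by 0.20 to 0.25 on the log2 scale. For beta-actin this excess was larger, 1.16 in control, 1.21 at 7 days and 1.25 at 14 days. All 15 listed markers of muscle fibres, the labelled tissue, such as Myh7 and Acta1, lay above the floor on every array. The only available error is technical. It is the SD of a probe set's log2 difference, taken from the disagreement within pairs of probe sets of 2293 genes, above the floor. Error that both probe sets of a pair share, as from the RNA pool or the labelling, is not in it. For 7 days against control this SD was 0.42 at mean log2 signals under 8, 0.31 at 8 to 10 and 0.21 at 10 and above.

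After 7 days of suspension, the fatty acid synthesis genes Scd and Fasn and 3 of the 6 fat cell genes stood at least 1.5-fold above control. Of the 10 members, 5 were thus that much higher (Scd, Fasn, Plin1, Adipoq and Cfd) and 0 were as far below. The background was 9.04% of the 11233 measured genes for 1.5-fold higher and 9.15% for 1.5-fold lower. The median log2 difference of the members was 0.59, against 0 over all measured genes. At a 2-fold limit 3 members were higher (Scd, Fasn and Plin1), with 2.21% of all genes. Of the genes 1.5-fold apart at 7 days, 49.7% were higher as deposited and 61.1% after each array was centred on its median.

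**Figure D1:**
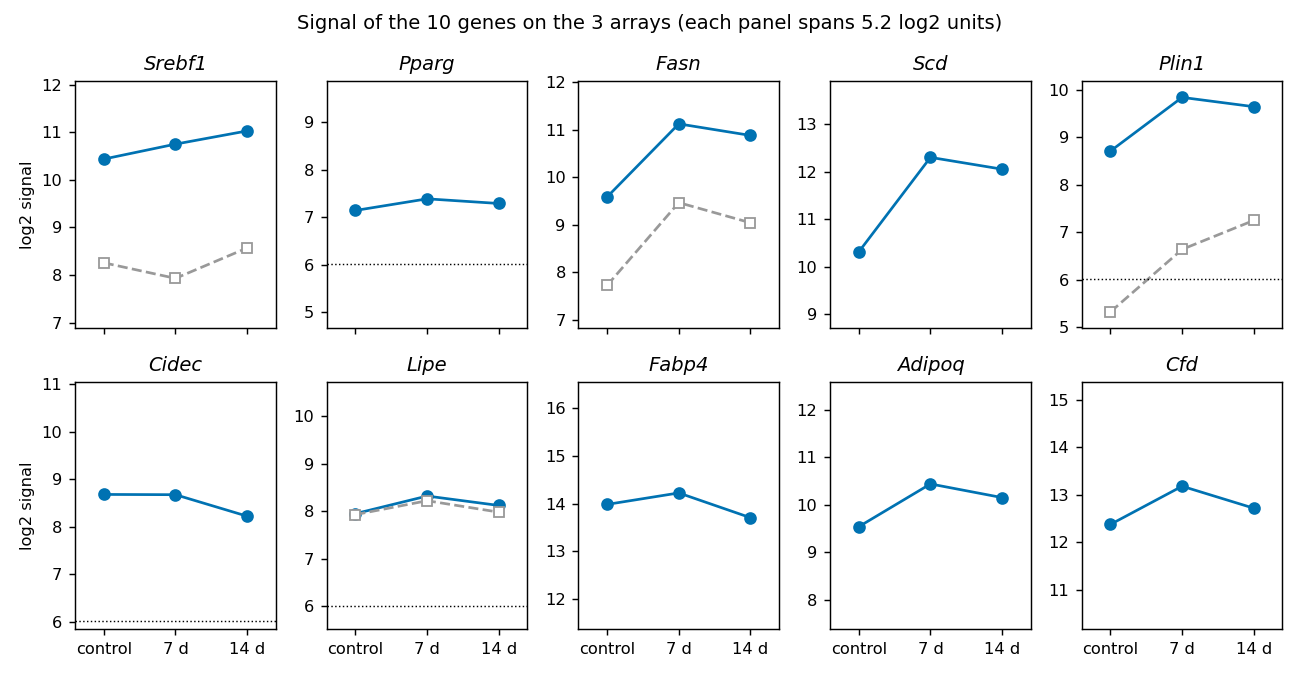
Log2 signal (vertical axis) of each of the 10 genes for the control, 7-day and 14-day arrays (horizontal axis), 1 array of 4 pooled rats per point. Filled blue circles are the probe set of highest mean signal, open grey squares a further probe set, and the dotted line is the floor of 6.01. Scd went from 10.31 in control to 12.30 at 7 days, whereas Cidec lay at 8.68 on both.

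Fatty acid synthesis showed the largest differences of the set. Scd encodes stearoyl-CoA desaturase, which puts the double bond into newly made saturated fatty acids. Its log2 signal was 10.31 in the control pool, 12.30 in the 7-day pool and 12.05 in the 14-day pool. Both suspended pools lay well above the control pool and close to each other. The difference from control was 1.99 (technical SD 0.21), or 3.97-fold, at 7 days and 1.74 (technical SD 0.23), or 3.34-fold, at 14 days. Among the measured genes this placed Scd at rank 16 from the top at 7 days and at rank 41 at 14 days.

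Fasn encodes fatty acid synthase, the enzyme that builds palmitate from acetyl-CoA and malonyl-CoA. In its brighter probe set the control pool read 9.58, the 7-day pool 11.12 and the 14-day pool 10.88. The second probe set gave 7.72, 9.46 and 9.04. Both probe sets therefore showed the same order, highest at 7 days and lowest in control. The brighter one was 2.90-fold above control at 7 days (log2 difference 1.54, technical SD 0.21) and 2.45-fold above it at 14 days (1.29, technical SD 0.23). The other gave log2 differences of 1.74 and 1.32. Fasn stood at rank 46 at 7 days and 158 at 14 days.

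The regulators stood closer to control than the enzymes. Srebf1 encodes the sterol regulatory element-binding protein that drives fatty acid synthesis genes. Its brighter probe set gave 10.44, 10.75 and 11.03, the only member whose highest value was at 14 days. The log2 difference from control was 0.31 at 7 days, 1.24-fold, and 0.59 at 14 days, 1.51-fold. Its second probe set gave 8.26, 7.93 and 8.57, so at 7 days it lay below control by 0.33 while the brighter one lay above. The mean of both probe sets gave -0.01 at 7 days and 0.45 at 14 days, so no direction is given for Srebf1 at 7 days.

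Pparg encodes PPARgamma, the nuclear receptor that fat cells need to form. Its log2 signals were 7.15, 7.39 and 7.29, all within 0.24 of one another and near the low end of the measured range. The difference from control was 0.24 at 7 days and 0.15 at 14 days, below the technical SDs of 0.42 and 0.43 at that signal. The array thus did not resolve a difference in Pparg.

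**Figure D2:**
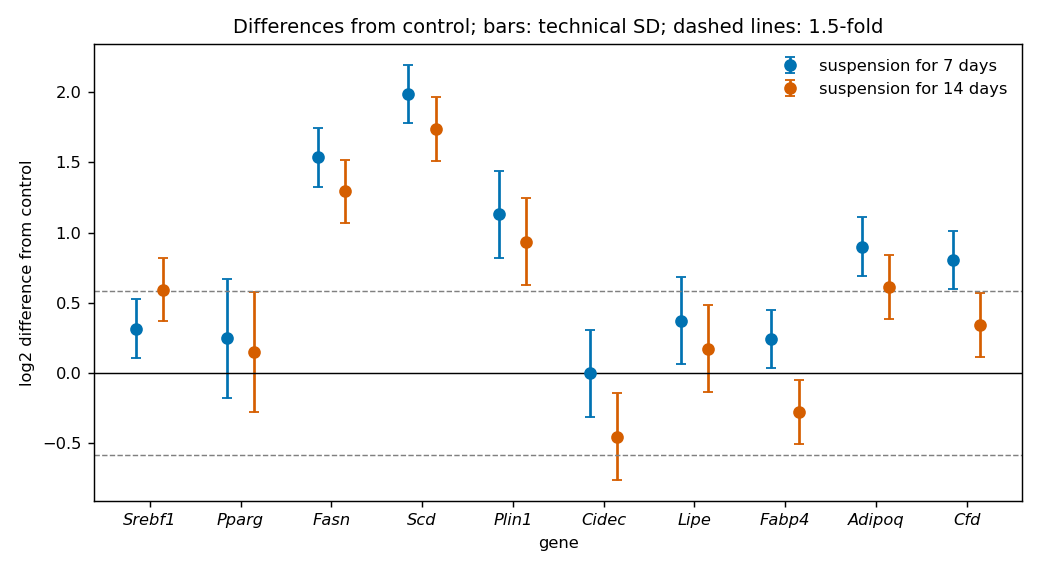
Log2 difference from control (vertical axis) of the 10 genes (horizontal axis) after 7 days (blue) and 14 days (orange) of suspension, by the probe set of highest mean signal. Bars are the technical SD of a single probe set, not the spread between rats, and dashed lines mark 1.5-fold. Scd and Fasn lie highest on both days, at 1.99 and 1.54 at 7 days, and Cidec and Fabp4 lie below 0 at 14 days, at -0.46 and -0.28.

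The lipid droplet genes Plin1 and Cidec differed from each other on both days. Plin1 encodes perilipin 1, the coat of the large droplet of fat cells, which guards the store from lipases. Its brighter probe set gave 8.71 in control, 9.84 at 7 days and 9.64 at 14 days, with the control pool lowest. This was 2.19-fold above control at 7 days (log2 difference 1.13, technical SD 0.31) and 1.91-fold at 14 days (0.93, technical SD 0.31). The second probe set gave 5.32, 6.64 and 7.25, with control under the floor, and so stood at least 1.54-fold higher at 7 days and at least 2.36-fold higher at 14 days. Both probe sets put control lowest, but they put the days in opposite order, with differences of -0.20 and 0.61 for 14 against 7 days.

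Cidec encodes the fat-specific droplet protein that fuses small droplets into a large one. It read 8.68 in both the control and the 7-day pool and 8.22 in the 14-day pool. The 7-day pool matched control, with a difference of -0.01 as deposited and 0.07 with median centring. The 14-day pool lay 1.37-fold below control (log2 difference -0.46, technical SD 0.31). The gap between Cidec and Plin1 was -1.13 at 7 days and -1.39 at 14 days, with technical SDs of the gap of 0.44 and 0.44.

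Lipe encodes hormone-sensitive lipase, which cuts stored diglyceride when fat is mobilised. Its probe sets were of nearly equal brightness, at 7.95, 8.32 and 8.12 for one and 7.93, 8.22 and 7.98 for the other. Both were highest at 7 days. The log2 differences from control were 0.37 and 0.29 at 7 days and 0.17 and 0.05 at 14 days, with a technical SD of 0.31 on each day. Fabp4 encodes the fatty acid-binding protein of fat cells, which capillary endothelium and macrophages also make. It gave 13.98, 14.22 and 13.70, so the 7-day pool was the highest and the 14-day pool the lowest. The differences from control were 0.24 at 7 days and -0.28 at 14 days, each little over its technical SD of 0.21 and 0.23. The highest value on any array was 16.03.

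The secreted products stood above control at 7 days and nearer to it at 14 days. Adipoq encodes adiponectin, a hormone made almost only by fat cells. Its signals were 9.54, 10.44 and 10.15, in the order of control, 7 and 14 days, 1.86-fold above control at 7 days (log2 difference 0.90, technical SD 0.21) and 1.53-fold at 14 days (0.61, technical SD 0.23). Cfd encodes adipsin, the complement factor D that fat cells secrete. It gave 12.37, 13.18 and 12.71, which is 1.74-fold above control at 7 days (0.80, technical SD 0.21) and 1.27-fold at 14 days (0.34, technical SD 0.23). For both genes control was the lowest pool and 7 days the highest.

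The enzymes stood apart from the fat cell marker Adipoq by a nearly constant amount on both days, which share the control array. Scd exceeded the difference of Adipoq by 1.09 at 7 days and 1.13 at 14 days (technical SDs of the gap 0.30 and 0.32). For Fasn the excess was 0.64 and 0.68 (technical SDs of the gap 0.30 and 0.32). Against Plin1, Scd was higher by 0.86 and 0.81. Fasn was higher than Plin1 by only 0.41 and 0.36, near the technical SD of the gap, 0.38 on each day. Plin1 exceeded Adipoq by 0.23 and 0.32, less than the technical SD of the gap, 0.38 on each day. Cidec lay 0.90 below Adipoq at 7 days and 1.07 below it at 14 days, and Fabp4 0.66 and 0.89 below. Over Plin1, Cidec, Lipe, Fabp4, Adipoq and Cfd the log2 differences had an SD of 0.44 at 7 days and 0.53 at 14 days, and over all 10 members of 0.64 and 0.68.

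**Figure D3:**
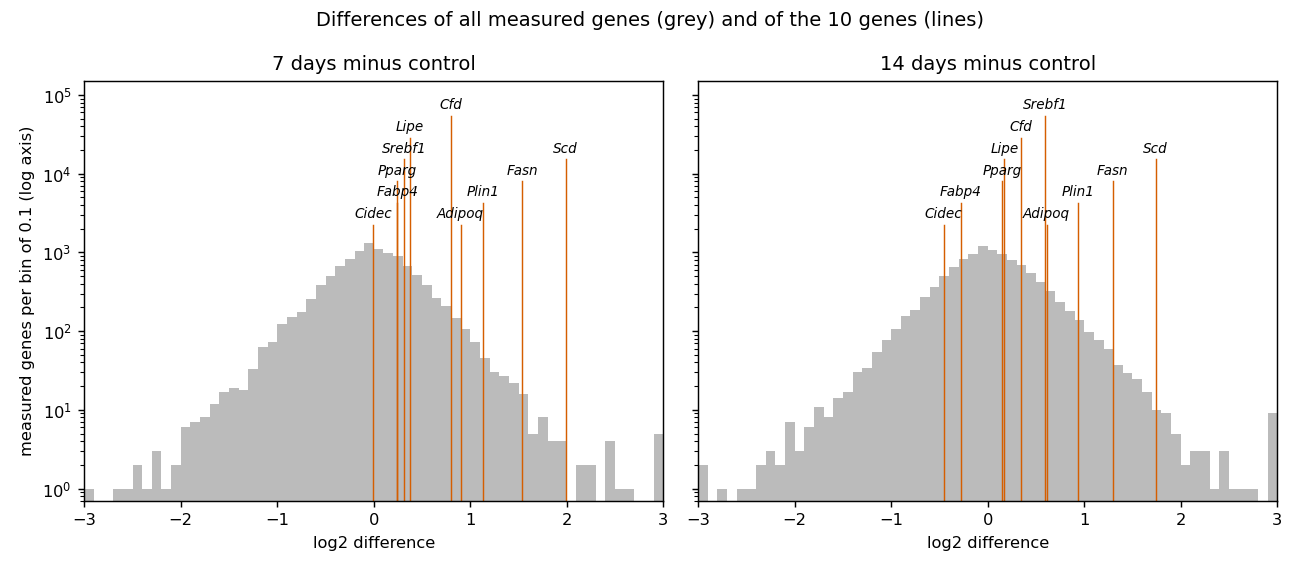
Number of measured genes (vertical log axis) per bin of 0.1 in log2 difference from control (horizontal axis) after 7 days (left) and 14 days (right), with values beyond 3 in either direction put in the outermost bin. Orange lines mark the 10 genes at heights chosen for legibility. Scd and Fasn lie in the upper tail on both days, at ranks 16 and 46 of 11233 at 7 days, and Cidec lies near the centre at 7 days, with 51.6% of genes above it.

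After 14 days of suspension the same enzymes remained the members farthest above control, and the fat cell genes were spread on both sides of it. Again 5 members were at least 1.5-fold higher (Scd, Fasn, Plin1, Adipoq and Srebf1) and 0 were 1.5-fold lower, where 11.7% of all measured genes were 1.5-fold higher and 9.25% lower. Adipoq at 1.53-fold and Srebf1 at 1.51-fold lay just inside the limit, and with quantile normalization both fell short of it, at log2 differences of 0.57 and 0.56, leaving 3. At 2-fold, 2 members were higher (Scd and Fasn), with 3.47% of all genes. The members' median was 0.47, against 0.01 over all measured genes. Of the 10 members 8 lay above control, the exceptions being Cidec and Fabp4, with 51.3% of all measured genes.

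Between the suspended pools, 9 of the 10 members were lower at 14 than at 7 days, by the probe set of highest mean signal, and Srebf1 was higher. Of all measured genes 46.3% were lower. Plin1 is among the 9 by its brighter probe set, but its mean over both probe sets was higher by 0.21. No member was 1.5-fold apart in this comparison, in which 6.45% of all measured genes were 1.5-fold higher and 4.28% lower. Of those genes 60.1% were higher as deposited and 48.9% with median centring. The members' median was -0.25, against 0 over all genes. Fabp4 showed the lowest value, -0.52 (technical SD 0.17), followed by Cfd at -0.46 and Cidec at -0.45. Scd and Fasn differed by -0.25 and -0.24, and Pparg by -0.10. For Srebf1 the difference was 0.28, and 0.64 in its second probe set.

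Further genes of fatty acid and triglyceride synthesis were taken from a list of 31, of which 27 were on the array and 25 measured. At 7 days 8 were at least 1.5-fold higher and 2 as much lower, with a median of 0.39. At 14 days 5 were higher and 2 lower (4 lower with quantile normalization), with a median of 0.21. For this and the later lists, the background is the share of all measured genes. At 7 days 9.04% were at least 1.5-fold higher, 9.15% as much lower and 49.4% above control. At 14 days these shares were 11.7%, 9.25% and 51.3%. Slc25a1, the carrier that brings citrate out of mitochondria for lipid synthesis, gave 7.19, 8.74 and 8.45 in control, at 7 and at 14 days, 2.91-fold and 2.39-fold above control. Acly, which splits that citrate into acetyl-CoA, was 1.53-fold and 1.33-fold higher. Acaca, the acetyl-CoA carboxylase that supplies malonyl-CoA, differed by 0.28 and 0.20.

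Among the enzymes that act on the product of Fasn, Elovl6, which lengthens palmitate, gave 5.34, 7.19 and 6.71, with control under the floor, and so stood higher by at least 2.26-fold and at least 1.63-fold. Its second probe set gave 5.84, 6.14 and 5.81. Scd2, a desaturase closely related to Scd, was 1.59-fold higher at 7 days and 2.75-fold at 14 days in its brightest probe set, at 9.68, 10.35 and 11.14. Cross-hybridisation between the Scd and Scd2 probe sets was not tested. Fads1, a desaturase of polyunsaturated fatty acids, was 1.74-fold and 2.34-fold higher. Thrsp, a lipogenic protein of fat and liver, was 2.48-fold higher at 7 days and 1.41-fold at 14 days, and each of its 3 probe sets was highest at 7 days.

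The genes that join fatty acids to glycerol differed among themselves. Gpam, the first acyltransferase of glycerolipid synthesis, gave 7.68, 8.19 and 6.63, that is 1.42-fold above control at 7 days and 2.08-fold below it at 14 days. Its second probe set gave 6.94, 6.65 and 6.17, lower on both days. Dgat2, which adds the last acyl chain of triglyceride, was 1.25-fold higher at 7 days and 1.60-fold lower at 14 days, whereas a second bright probe set gave log2 differences of 0.33 and -0.14. Agpat1, an acyltransferase of the next step, was 2.10-fold and 1.37-fold below control. Its listed relatives Agpat2 and Agpat3, by their brightest probe sets, differed by 0.34 and 0.64 at 7 days and by -0.49 and -0.48 at 14 days. Lpin1, a phosphatidate phosphatase, differed by 0.39 and 0.21. Me1, the malic enzyme that supplies reducing power, differed by -0.07 and -0.09.

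Regulators of lipid synthesis other than Srebf1 lay on both sides of control. Of 21 measured, 2 were at least 1.5-fold higher and 3 lower at 7 days, with a median of -0.03 that turned to 0.04 with median centring. At 14 days 3 were higher and 2 lower, with a median of 0.12. These counts are close to the shares of all measured genes. Srebf2, the sterol-directed relative of Srebf1, was 1.61-fold and 1.39-fold higher, and Insig1, which holds these factors in the endoplasmic reticulum, was 1.61-fold and 1.99-fold higher. Mlxipl, the carbohydrate-responsive factor ChREBP, gave 8.52, 7.61 and 7.51 and was 1.87-fold and 2.01-fold lower. Irs2, an adaptor of the insulin receptor, was 2.09-fold and 2.50-fold lower.

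Further genes of fat cells lay on both sides of control at 7 days and mostly below it at 14 days. Of 29 listed genes 23 were on the array and 21 measured. At 7 days 4 were at least 1.5-fold higher and 3 lower, with a median of 0.10, and at 14 days 2 were higher and 8 lower, with a median of -0.45. Lep, the gene of leptin, was under the floor on every array, at 2.39, 2.53 and 0.82. Plin4, a droplet coat of fat and muscle, gave 12.55, 11.52 and 11.60, and was 2.05-fold and 1.93-fold lower. Aqp7, the glycerol channel of fat cells and also of muscle, gave 11.03, 9.31 and 8.80, and was 3.30-fold and 4.71-fold lower. Pck1, which makes glycerol precursor in fat cells, gave 7.38, 10.87 and 9.59. Gpd1, a further step to glycerol phosphate, gave 11.38, 12.34 and 13.42. Cebpa, the partner of Pparg, gave 6.37, 6.77 and 6.83, close to the floor, and its 5 probe sets differed in sign.

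Other droplet and lipolysis genes, several of which muscle fibres also use, lay mostly below control at 14 days. Of 26 listed genes, 22 were measured; 2 were at least 1.5-fold higher and 6 lower at 7 days, and 1 was higher and 6 lower at 14 days, with medians of -0.01, or 0.06 with median centring, and -0.40. Plin5, the perilipin of oxidative muscle, gave 10.59, 9.76 and 8.82, 1.77-fold and 3.40-fold below control. Cidea, the relative of Cidec known from brown fat, gave 10.74, 9.67 and 8.72, 2.10-fold and 4.06-fold below. Plin2, the droplet coat of most cells, differed by -0.14 and -0.39, and Pnpla2, the first triglyceride lipase, by 0.27 and -0.48. Lpl, the lipase that frees fatty acids from blood lipoproteins, was 1.32-fold and 1.72-fold lower. Mgll, which completes lipolysis, was 1.47-fold and 1.58-fold higher in its probe set of highest mean signal. A probe set of similar brightness gave log2 differences of -0.06 and 0.11, and a somewhat dimmer one 0.61 and 0.79. The last Mgll probe set lay under the floor on every array.

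**Figure D4:**
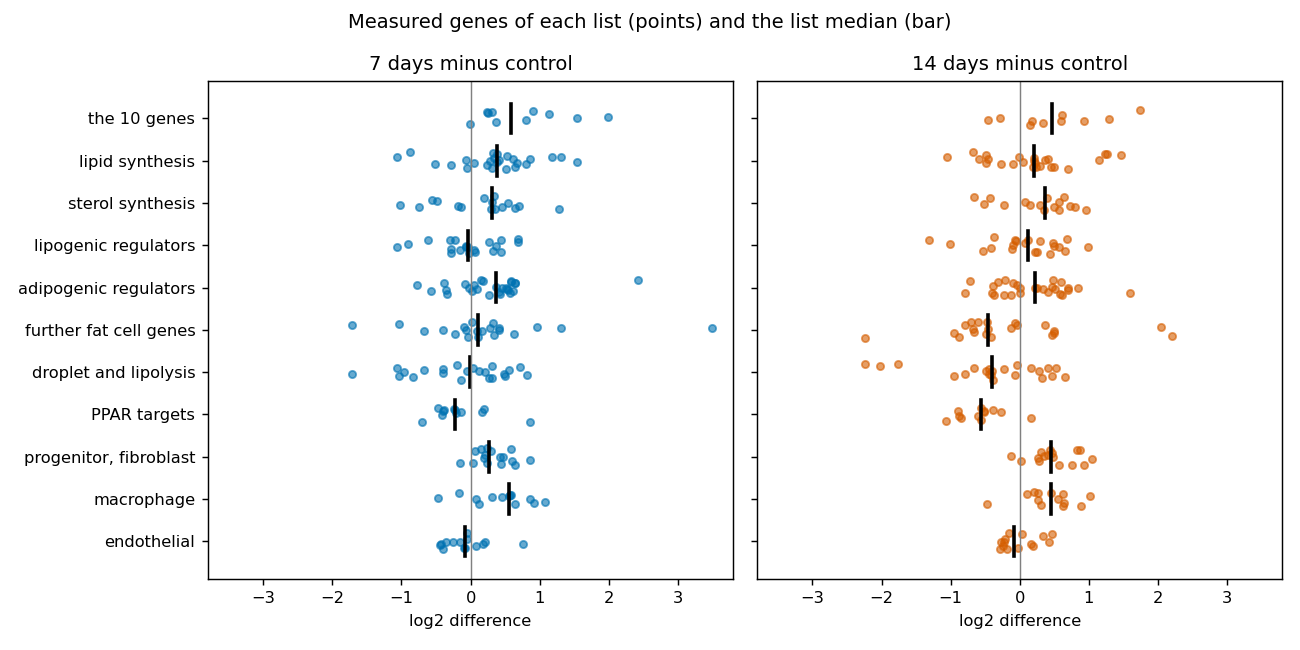
Log2 difference from control (horizontal axis) of the measured genes of each list (rows) after 7 days (left, blue) and 14 days (right, orange); each point is 1 gene and the black bar is the list median. The 10 genes have medians of 0.59 and 0.47, lipid synthesis 0.39 and 0.21, and the droplet and lipolysis list -0.01 and -0.40. Some genes are in more than 1 list.

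Markers of cell types were read beside these values. The 15 muscle fibre markers had medians of 0.01 at 7 days (-0.02 with quantile normalization) and -0.23 at 14 days. At 14 days all 15 lay below control as deposited, 1 of them at least 1.5-fold, and 4 lay above it with quantile normalization. The log2 of their summed signal was 19.42, 19.40 and 19.17. The probe sets used read mostly near the highest value of any array, 16.03, and compression of signals there was not tested. Some dimmer probe sets lay further below control, that of Myh7 at -0.50 and -1.23 and that of Myl2 at -1.59 and -1.52. That of Tnni1 gave 0.03 and -0.40, and those of Atp2a2 ranged from -0.74 to 0.32 at 7 days. Macrophage markers had medians of 0.55 and 0.45, with 5 of 13 measured genes at least 1.5-fold higher on each day (3 at 14 days with quantile normalization) and 0 lower, among them Cd163 at 2.11-fold and 1.84-fold. The log2 of their summed signal went from 13.40 in control to 13.77 and 13.82 in the suspended pools. Markers of fibroblasts and fibro-adipogenic progenitors, the cells from which fat in muscle can form, had medians of 0.27 and 0.45. On each day 15 of 16 of these genes lay above control. At least 1.5-fold higher were 4 at 7 days and 5 at 14 days, and 0 were as much lower. With quantile normalization these counts of higher genes were 2 and 7, and 14 genes lay above control at 14 days. Their summed signal was 16.89, 17.20 and 17.37, and Pdgfra, which defines the progenitors, was 1.82-fold and 1.69-fold higher. Their part in the differences of the fat cell genes was not tested. Endothelial markers, whose cells also make Fabp4, had medians of -0.09 and -0.09, with summed signals of 13.66, 13.63 and 13.73.

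Of the brown and beige fat markers, 6 of the 10 on the array, including Ucp1, the uncoupling protein of brown fat, were under the floor on every array, with Ucp1 at 3.59, 3.19 and 5.58. The 4 measured were Cidea, Pank1, Cox8b and Prdm16, with medians of -0.39 and -0.51. A list of targets of PPAR receptors in muscle and fat had 12 measured genes, among them the receptor gene Ppard itself. Of the 12, 1 was at least 1.5-fold higher and 1 lower at 7 days, close to the shares of all measured genes. At 14 days 0 were higher and 5 lower. The medians were -0.23 and -0.56. Ucp3, the uncoupling protein of muscle, was 1.82-fold higher at 7 days and 1.12-fold at 14 days, and its second probe set gave log2 differences of 0.20 and -0.36. Pdk4, a kinase that spares glucose, differed by 0.19 at 7 days and was 2.09-fold lower at 14 days, with 0.42 and -1.91 in a further probe set. Angptl4, an inhibitor of lipoprotein lipase, differed by 0.17 at 7 days and was 1.85-fold lower at 14 days.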

How the data were processed

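Total RNA of rat soleus was extracted with Trizol, purified with an RNeasy kit and labelled as biotinylated cRNA, per the labels' protocols. The values deposited by the authors are log2 signals per probe set, scaled to a nearly equal mean unlogged signal (500.2 on each array after trimming 2% at each end, read from the values). The program is not given in the sources used here. They were used as deposited.

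The array's 57 control probe sets were set aside. Of the rest, 20826 had 1 gene in the platform annotation, 436 several and 9780 none. Symbols were updated by gene ID for 20758 probe sets. Of a gene's probe sets, the one with the highest mean signal was used. Signals under the 40th percentile (log2 6.01) were set to this floor, and a gene with 1 array or more at or above it counted as measured (11233 of 14217). A fold against an array under the floor is a lower bound. With 1 array per group no test was made, the number of arrays limits the precision, and genes at least 1.5-fold apart were counted.

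The members and gene lists were chosen with earlier results of these data known. Named genes are the members, up to 5 genes per list of largest difference from control, and 22 genes whose roles pair with a member. Not every one is reported. Myh7, Acta1, Agpat1, Agpat2, Agpat3 and Lpin1 were named outside this rule. The alternatives were other scalings (median centring, quantile normalization), floors at the 25th and 50th percentile or none, the mean of the probe sets, and a 2-fold limit. The procedure was tested on simulated data. Python 3.11.15, pandas 2.3.3 and numpy 2.4.6 were used.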

Additional observations from a re-analysis of the deposited data

How the results depend on the processing

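The 3 floor alternatives could not move a member, since all 10 lie above every floor on every array, and are not counted here. The members' medians moved by less than their technical error under the other 3 alternatives (2 scalings and the mean of the probe sets) in each comparison, and no called difference of a member changed sign. Of 24 recomputed counts of members, 21 stayed within 1.5 times the value given. Most of these were 0 in every setting, namely each count of members lower and that of members higher at 14 than at 7 days. A 2-fold limit can only lower a count. The count at least 1.5-fold higher at 14 days was 3 in place of 5 with quantile normalization. With a 2-fold limit the counts were 3 at 7 days and 2 at 14 days. Of 90 recomputed member differences, 2 moved by more than the technical SD over all signal ranges. That SD was 0.36 for each day against control and 0.29 for 14 against 7 days. Both were of Plin1 with the mean of its probe sets, at 1.43 for 14 days against control and 0.21 for 14 against 7 days. There the dimmer probe set lay under the floor in control. By the SD of its own signal range, the mean of the probe sets also moved Srebf1. Its difference went from 0.31 to -0.01 at 7 days (SD 0.21) and from 0.28 to 0.46 for 14 against 7 days (SD 0.17). Cidec at 7 days changed sign with median centring (0.07), and Srebf1 at 7 days with the mean of its probe sets (-0.01). No paired analysis was possible because each group has 1 array. With signals close to background, as for Pparg, Cebpa and Elovl6, small differences cannot be resolved.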

Other observations

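Genes of cholesterol synthesis, the other branch under sterol regulatory element-binding proteins, lay above control in 10 of 16 measured cases at 7 days and in 12 of 16 at 14 days, with medians of 0.30 and 0.37. Of all measured genes 49.4% and 51.3% lay above control on these days. Of the 16 sterol genes, 3 were at least 1.5-fold higher and 2 lower at 7 days, and 4 were higher and 1 lower at 14 days. Cyp51, the sterol demethylase, gave 8.56 in control, 9.20 at 7 days and 9.53 at 14 days. Hsd17b7, a later enzyme of the pathway, was 2.44-fold and 1.73-fold higher, from a control signal of only 6.26, but its second probe set read 6.37, 5.30 and 6.32, under the floor at 7 days. The early enzymes Mvk and Mvd lay below control, 2.03-fold and 1.67-fold at 7 days, and a further probe set of Mvk read 6.61, 5.87 and 6.90, under the floor at 7 days.

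Factors that turn fat cell formation on or off lay above control in 20 of 27 measured cases at 7 days and in 14 of 27 at 14 days, with medians of 0.37 and 0.23. Of all measured genes 49.4% and 51.3% lay above control on these days. Of the 27 factors, 4 were at least 1.5-fold higher and 1 lower at 7 days, and 6 were higher and 2 lower at 14 days. With median centring 9 were higher and 1 lower at 7 days, with 11.6% and 7.35% of all measured genes. Cebpd, an early inducer of the fat cell programme that many stresses also raise, gave 8.73, 11.15 and 10.32, 5.38-fold and 3.02-fold above control, and a further probe set gave log2 differences of 1.79 and 1.03. Dlk1, which holds precursors back from becoming fat cells, was 1.49-fold and 1.73-fold lower. Sfrp1, an antagonist of Wnt signals, was 1.70-fold lower at 7 days and 1.30-fold at 14 days, and its relative Sfrp5 was 1.43-fold and 1.79-fold higher.

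Red blood cell markers had medians of -0.13 and -0.63 over 5 measured genes. Of these, 3 were at least 1.5-fold lower at 14 days, namely Hba-a3 at 6.94-fold, Slc4a1 at a bound of 1.71-fold and Ahsp at 1.54-fold, while Hbb differed by -0.13.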
